A study of Mus musculus with 6 samples.

Results

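The genes described here are 10 markers of the contractile apparatus of smooth muscle, Acta2, Tagln, Myh11, Cnn1, Des, Actg2, Smtn, Lmod1, Cald1 and Tpm2, measured in whole mouse ovaries. They were taken by symbol from a list that was drawn up with earlier results of these data known, and all 10 were found among the 55536 genes of the count table. All 10 were also among the 17499 genes that passed the filter on low counts. The study gave M1, a promoter of mitochondrial fusion, to female ICR mice and asked what it does to the ovary. The 3 M1 mice received 10 mg/kg intraperitoneally in proestrus, at 9:00 and again at 16:00. Proestrus is the phase of the cycle that ends with the surge of luteinizing hormone. The 3 Control mice were injected at the same hours, and the content of that injection is not given in the sources used here. All 6 mice were 10 weeks old and carried no named allele, and their ovaries were taken at 20:00. The labels describe the cycle of the Control mice as normal and that of the M1 mice as disrupted. Each mouse gave 1 polyA library made from both ovaries, so a library is a mouse, with 12536440 to 18651402 reads assigned to genes.

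Smooth muscle cells shorten when calcium, bound to calmodulin, activates myosin light chain kinase and the phosphorylated myosin pulls on actin filaments. The contractile genes encode the actins, the myosin, the proteins that lie along the actin filament and the filaments that carry the force through the cell. Most of them are transcribed together by serum response factor (SRF) with its partner myocardin, which bind a short element called the CArG box. In the ovary, smooth muscle surrounds the arteries, and cells that carry contractile proteins form the outer shell of the follicle, the theca externa. In rats and mice, contraction of the follicle wall under endothelin signals takes part in ovulation.

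No contractile gene passed the threshold between M1 and Control, which was an adjusted p under 0.05 with a fold change above 1.5 in edgeR's quasi-likelihood test. Across all 17499 genes that test called 1 gene (0.00571%). DESeq2, which called 228 genes lower (1.5%) and 198 genes higher (1.3%) of the 15238 to which it gave an adjusted p-value, also called none of the 10. Limma-voom called none of them either. At an unadjusted p under 0.05, edgeR put 3 of the 10 lower after M1, namely Smtn, Lmod1 and Cald1, and none higher. Over all genes, 1605 (9.17%) were lower and 1348 (7.7%) were higher at that level. DESeq2 had 4 of the 10 at an unadjusted p under 0.05, with Myh11 added, where 1519 of its 15238 genes (9.97%) were lower and 1172 (7.69%) higher. Limma-voom had 3 of the 10, where 1491 of all genes (8.52%) were lower and 1436 (8.21%) higher. The estimated log2 fold change was negative for 10 of the 10, against 8834 of all genes (50.5%), and their median was -0.35 where the median of all genes was 0.00. Tagln at -0.01 and Tpm2 at -0.02 were near 0, and 8 to 10 of the 10 were negative over the alternative fits. The 10 genes were read from the same 6 libraries and moved together from library to library, so they are not 10 separate observations. The ovary was measured in bulk, and fewer smooth muscle cells cannot be told apart from less RNA per cell.

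**Figure D1:**
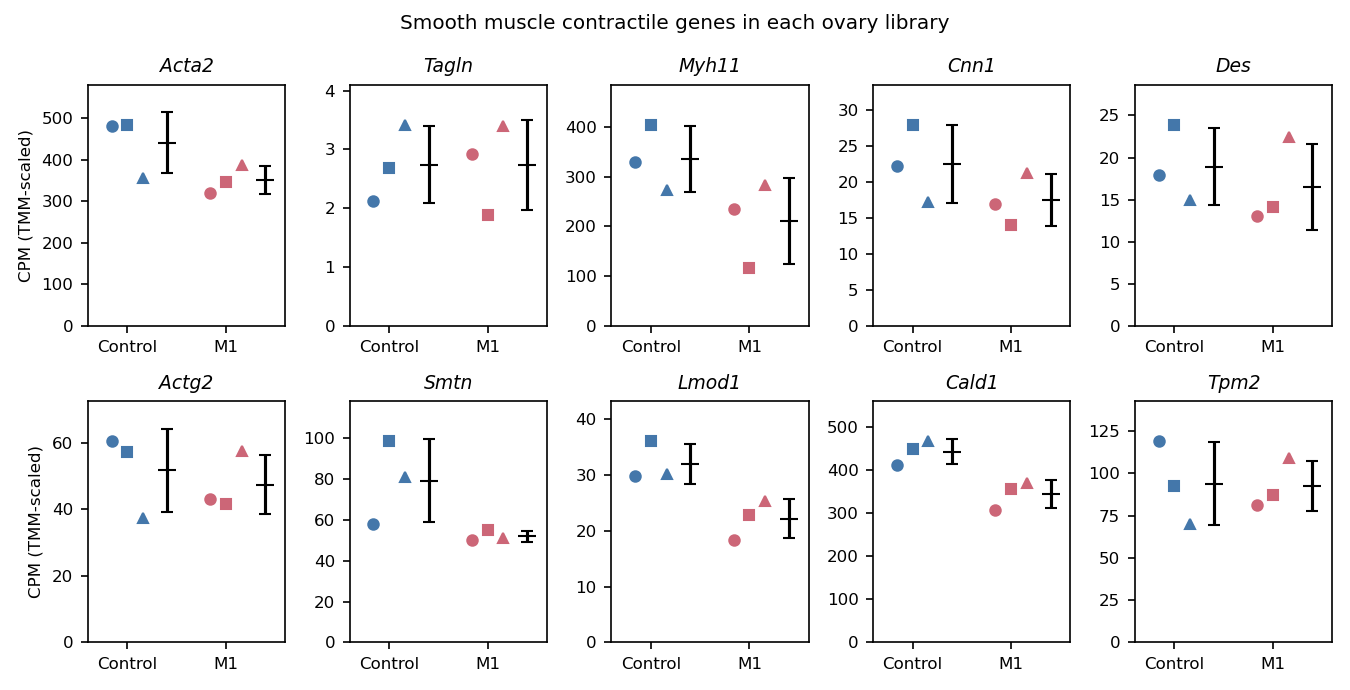
Normalized read count of the 10 contractile genes in CPM (assigned reads per 1000000, with each library scaled by TMM), with 1 point per mouse (circle, square and triangle for mice 1, 2 and 3 of each group) and the mean with its SD beside the points. The M1 points of Smtn, Lmod1 and Cald1 lie below all Control points, and the groups overlap for the other 7 genes.

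The actins of smooth muscle form the thin filament. Acta2 (chr19:34241090-34255590, minus strand, in GRCm38 as for all genes here), the alpha actin of vascular smooth muscle, is also made by myofibroblasts and by cells of the theca externa. Its normalized read count was 482, 484 and 357 CPM in Control mice 1, 2 and 3 and 320, 347 and 386 CPM in M1 mice 1, 2 and 3. Control mouse 3 lay within the M1 range, so the groups overlapped. The means were 441 ± 73.0 CPM in Control and 351 ± 33.3 CPM in M1 (SD, n = 3 mice each), and the log2 fold change was -0.33 with a standard error of 0.17 (95% interval -0.71 to 0.06, edgeR adjusted p = 0.351). Actg2 (chr6:83512905-83536265, minus strand), the gamma actin of visceral smooth muscle, was at 60.5, 57.4 and 37.3 CPM in Control and at 43.0, 41.6 and 57.7 CPM in M1. Its lowest value was in Control mouse 3 and the values of the groups were interleaved. Its log2 fold change was -0.12 ± 0.22 (SE; interval -0.63 to 0.38, edgeR adjusted p = 0.799). Both genes can share reads with other actins, since the coding sequences are alike. The longest identical stretch of Acta2 with another actin transcript was 56 bases, with Actg1, and that of Actg2 was 38 bases, with Actc1. Both are shorter than the reads of 150 bases. Stretches that differ at a few bases were not looked at, and whether reads were credited to the wrong actin was not tested. The skeletal and cardiac actins, Acta1 and Actc1, had at most 3 counts in any library.

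Myh11 (chr16:14194535-14291372, minus strand), the heavy chain of smooth muscle myosin and the most specific marker of the cell type among the 10, had the most negative estimate. It was measured at 329, 404 and 272 CPM in Control and at 234, 116 and 283 CPM in M1. M1 mouse 2 stood apart at 116 CPM, and M1 mouse 3 lay above Control mouse 3, so the groups overlapped. The means were 335 ± 66.4 and 211 ± 86.1 CPM, the M1 mean being 0.630 of the Control mean, and the log2 fold change was -0.67 ± 0.32 (SE; interval -1.40 to 0.07, edgeR adjusted p = 0.330). Without M1 mouse 2 it was -0.37. The longest stretch that Myh11 shares with Myh9 or Myh10, the non-muscle myosins, was 65 bases.

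Smtn, Lmod1 and Cald1 encode proteins that bind the actin filament, and they were the 3 genes whose M1 libraries all lay below the Control libraries. Over all genes, 1957 (11.2%) had every M1 library below every Control library and 1995 (11.4%) had every M1 library above. Smtn (chr11:3517523-3540612, minus strand), or smoothelin, is typical of fully contractile smooth muscle cells. It was measured at 58.2, 98.5 and 81.0 CPM in Control and at 49.9, 55.1 and 50.9 CPM in M1. The M1 values were close to each other while the Control values were spread (SD 2.75 and 20.2 CPM), and the gap between the groups, from 55.1 to 58.2 CPM, was narrow. The M1 mean was 0.656 of the Control mean, with a log2 fold change of -0.61 ± 0.19 (SE; interval -1.05 to -0.17), an unadjusted p of 0.0132 and an adjusted p of 0.223 in edgeR. Without Control mouse 1, the lowest of the Control group, Smtn passed the threshold at a log2 fold change of -0.79 and an edgeR adjusted p of 0.0358. That fit called 782 genes in all, and over the alternatives the adjusted p of Smtn ran from 0.0358 to 0.515. The exons of Smtn share 16.3% of their bases with the antisense genes Gm11946 and Gm11947, which held at most 22 counts per library. Reads of Smtn in those shared bases may have been set aside and credited to neither gene, since the strand setting of the counting is not given.

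Lmod1 (chr1:135324807-135368065, plus strand), or leiomodin, starts new actin filaments in smooth muscle. It was measured at 29.7, 36.0 and 30.1 CPM in Control and at 18.4, 22.8 and 25.3 CPM in M1. The SDs were nearly the same in both groups, at 3.53 CPM around 31.9 in Control and 3.47 CPM around 22.2 in M1. The log2 fold change was -0.53 ± 0.16 (SE; interval -0.90 to -0.15), with an unadjusted p of 0.0124 and an adjusted p of 0.220 in edgeR, the lowest adjusted p of the 10. Cald1 (chr6:34598500-34775473, plus strand), or caldesmon, inhibits the myosin ATPase on the actin filament and has a shorter form outside muscle that the gene counts do not separate. It was at 412, 451 and 468 CPM in Control and at 308, 356 and 371 CPM in M1. The log2 fold change was -0.36 ± 0.14 (SE; interval -0.68 to -0.05, unadjusted p = 0.0286, edgeR adjusted p = 0.255). Cald1 has the longest exon sequence of the 10, at 12041 bases. When edgeR was given a gene length offset, the log2 fold change of Cald1 was -0.19 at an adjusted p of 0.520. The estimates did not all shrink under that offset. Acta2 was at -0.44 and Myh11 at -0.54, and the median of the 10 was -0.37. Without Control mouse 2, only Smtn of the 10 was under an unadjusted p of 0.05, and the median of the 10 was -0.22.

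In the last 4 genes the groups overlapped. Cnn1 (chr9:22099216-22109630, plus strand), or calponin, binds actin and slows the myosin ATPase. It was at 22.3, 28.0 and 17.2 CPM in Control and at 17.0, 14.1 and 21.3 CPM in M1, with a log2 fold change of -0.37 ± 0.23 (SE; edgeR adjusted p = 0.439). Des (chr1:75360329-75368579, plus strand), or desmin, the intermediate filament of muscle, was at 17.9, 23.9 and 15.0 CPM in Control and at 13.1, 14.1 and 22.4 CPM in M1, with a log2 fold change of -0.20 ± 0.26 (edgeR adjusted p = 0.733). For both genes M1 mouse 3 lay above Control mouse 3 and the groups overlapped. Tpm2 (chr4:43514711-43523765, minus strand), or beta-tropomyosin, lies along the thin filament in smooth and skeletal muscle. It was at 119, 92.4 and 69.9 CPM in Control and at 81.3, 87.1 and 109 CPM in M1, and its log2 fold change of -0.02 ± 0.21 took the other sign when single mice were left out. Its interval of -0.50 to 0.47 allows a change of either direction.

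Tagln (chr9:45929619-45936058, minus strand), which encodes transgelin (SM22), an actin-binding protein that is usually abundant in smooth muscle, was nearly absent from the table. It had 31, 42 and 63 counts in Control and 45, 27 and 43 counts in M1, which is 1.89 to 3.42 CPM. The exact Poisson 95% interval of the lowest count, 27, is 17.8 to 39.3, and that of the highest, 63, is 48.4 to 80.6. The log2 fold change was -0.01 ± 0.34 (interval -0.80 to 0.78, edgeR adjusted p = 0.992). Of the 1988 exon bases of Tagln, 1349 (67.86%) are also exon bases of other genes in GENCODE vM21, the annotation whose gene lengths match those of the deposited values. The antisense gene Gm48529 covers 62.42% of them and Pcsk7, a neighbouring protease gene, 5.433%. Gm48529 was listed at 32, 43 and 33 counts in Control and at 44, 28 and 43 counts in M1. These counts were nearly those of Tagln itself in every library but Control mouse 3. The strand setting of the counting is not given in the sources used here, and reads of Tagln that fall where gene models overlap may have been set aside, so the level of Tagln is not set beside those of the other genes below.

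**Figure D2:**
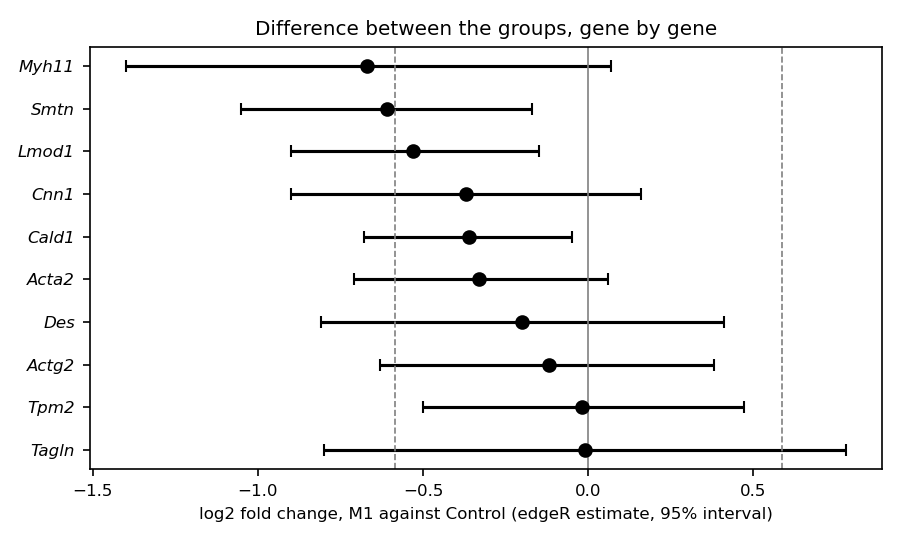
Log2 fold change of M1 against Control for each contractile gene, as estimated by edgeR, with its 95% interval. All 10 points lie at or below 0, the intervals of Smtn, Lmod1 and Cald1 do not reach 0, and the dashed lines mark a fold change of 1.5 in either direction.

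The levels of the genes relative to each other were read from the deposited TPM values, which divide by gene length. Acta2 led, with a mean of 582 TPM over the 6 libraries and a range of 439 to 772, and it was above every other contractile gene in 6 of 6 libraries. Myh11 followed at 117 TPM (42.4 to 175), Cald1 at 106 TPM (81.6 to 133), Tpm2 at 103 TPM (82.3 to 144) and Actg2 at 103 TPM (74.3 to 137). These 4 were not separated by the spread between mice, since Myh11 was above Cald1 in 4 of 6 libraries and Cald1 was above Tpm2 in 2 of 6, while Tpm2 was above Actg2 in 5 of 6. Smtn came next at 48.4 TPM (35.0 to 73.8) and was below Actg2 in 6 of 6 libraries. Cnn1, at 23.6 TPM, and Lmod1, at 22.2 TPM, exchanged places between libraries, and Des was below both at 15.2 TPM in the mean. The TPM of the visceral actin was below that of the vascular actin in every library.

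The 10 genes summed to 1450, 1410 and 1110 TPM in Control and to 909, 800 and 1080 TPM in M1. Acta2 made up 50.0 to 55.0% of the sum in the 6 libraries. The groups did not overlap in this sum, by a margin of 1080 against 1110 TPM. As a share of all assigned counts the 10 genes took 0.164%, 0.164% and 0.133% in Control and 0.109%, 0.101% and 0.134% in M1, where M1 mouse 3 lay just above Control mouse 3. In single genes the deposited TPM separated the groups for 5 of the 10, adding Acta2 (556 TPM in the lowest Control mouse, 538 TPM in the highest M1 mouse) and Myh11 (123 and 114 TPM). On that scale 4045 of all genes tested (23.1%) had every M1 library below every Control library and 720 (4.11%) had every M1 library above. On the scale of log2(TPM + 1) the median of all genes tested was itself -0.16, where that of the 10 genes was -0.51.

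Promoter stretches of 4 genes are printed to show where the element bound by SRF was found and where it was not. The CArG box is a pair of C, a run of A and T, and a pair of G. It reads the same way on both strands. The RefSeq promoter windows of GRCm38.p6, from 250 bases before a gene's start to 50 after it, hold 7 of the 10 contractile genes. The other 3, Tagln, Myh11 and Actg2, were not searched. The starts are those of RefSeq and can differ from the ends of the gene ranges given above. The Smtn stretch lies inside its gene range, and so does most of the Acta2 stretch, with its boxes. The stretches before the start are those of Acta2 (chr19:34255374-34255623, minus strand), which has the highest level, of Smtn (chr11:3539293-3539542, minus strand) and Lmod1 (chr1:135324563-135324812, plus strand), which had the lowest p-values, and of Srf itself (chr17:46556163-46556412, minus strand), with boxes in capitals.
Acta2: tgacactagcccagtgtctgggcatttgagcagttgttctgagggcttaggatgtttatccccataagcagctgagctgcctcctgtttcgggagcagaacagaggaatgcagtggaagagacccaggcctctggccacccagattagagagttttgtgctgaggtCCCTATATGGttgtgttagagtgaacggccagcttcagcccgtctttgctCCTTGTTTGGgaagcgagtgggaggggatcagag
Smtn: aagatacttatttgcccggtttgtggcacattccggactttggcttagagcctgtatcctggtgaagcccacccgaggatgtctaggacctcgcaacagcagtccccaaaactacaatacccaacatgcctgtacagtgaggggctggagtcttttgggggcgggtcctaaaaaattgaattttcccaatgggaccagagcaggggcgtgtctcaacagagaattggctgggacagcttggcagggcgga
Lmod1: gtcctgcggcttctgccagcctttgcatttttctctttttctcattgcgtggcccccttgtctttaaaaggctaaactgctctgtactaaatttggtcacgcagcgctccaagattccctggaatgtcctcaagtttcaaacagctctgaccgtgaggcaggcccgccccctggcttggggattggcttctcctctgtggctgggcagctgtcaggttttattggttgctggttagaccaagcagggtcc
Srf: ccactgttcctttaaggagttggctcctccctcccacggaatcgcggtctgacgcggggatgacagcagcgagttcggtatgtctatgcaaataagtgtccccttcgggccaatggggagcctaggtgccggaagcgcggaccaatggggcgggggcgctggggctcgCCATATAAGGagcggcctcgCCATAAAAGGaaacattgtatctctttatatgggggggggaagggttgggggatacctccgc
Srf holds 2 full boxes, which begin 82 and 62 bases before its RefSeq start. Acta2 holds 2 boxes of a relaxed kind, with 1 G or C among the 6 middle bases, which begin 84 and 34 bases before its RefSeq start. No other contractile gene that was searched had either kind in its RefSeq window. A full box was in the windows of 0 of the 7 contractile genes, of 7 of 49 genes (14.3%) from the lists of related genes described next and of 488 of all 27025 genes (1.81%). The relaxed kind, full boxes included, was found for 1 of 7 contractile genes (14.3%), 13 of 49 related genes (26.5%) and 3050 of all genes (11.3%). Searching by letters does not show binding, and many regulatory elements of smooth muscle genes lie outside such windows.

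The transcription factors of smooth muscle genes were read next. Myocd, the cardiac and smooth muscle coactivator myocardin that SRF needs at contractile genes, was at 20.1, 22.5 and 19.7 CPM in Control and at 10.6, 6.57 and 13.7 CPM in M1. Every M1 mouse was below every Control mouse, and M1 mouse 2, which was also lowest for Myh11, was lowest here. The log2 fold change was -1.01 ± 0.26 (SE, edgeR adjusted p = 0.201), and DESeq2 called it lower (adjusted p = 0.0192). Srf was at 34.2, 46.1 and 42.0 CPM in Control and at 34.0, 26.8 and 33.3 CPM in M1, with a log2 fold change of -0.38 (edgeR adjusted p = 0.292) and groups that almost touched. Tead1, a factor that acts on muscle promoters, had a log2 fold change of -0.42 (edgeR adjusted p = 0.201), and Heyl, a Notch target of mural cells, one of -0.49 (edgeR adjusted p = 0.208). Gata6, a zinc finger factor of vascular smooth muscle that is also expressed in granulosa and theca cells, was higher in every M1 mouse, at 112, 87.3 and 109 CPM in Control and 172, 149 and 172 CPM in M1. It had a log2 fold change of 0.68 (edgeR adjusted p = 0.195, DESeq2 adjusted p = 0.00929). Of the 11 transcription factors listed, 4 were lower and 1 was higher at an unadjusted p under 0.05. None was called by edgeR, and the median log2 fold change was -0.26. The shares to set beside this list and those below are 9.17% of all genes lower and 7.7% higher at that level.

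Among 20 other proteins of the contractile filaments, all tested, 5 were lower and none higher at an unadjusted p under 0.05, with a median log2 fold change of -0.31. None was called by edgeR and 2 were called lower by DESeq2. Csrp1, a LIM protein that partners SRF and binds the actin cytoskeleton, was at 80.6, 181 and 161 CPM in Control and at 60.7, 58.5 and 53.1 CPM in M1. The groups did not overlap, although Control mouse 1 was much closer to the M1 mice than the other Control mice were. Its log2 fold change was -1.29 ± 0.28 (SE, edgeR adjusted p = 0.195, DESeq2 adjusted p = 0.00198). Synpo2, an actin-bundling protein of muscle, had a log2 fold change of -0.76 (edgeR adjusted p = 0.195, DESeq2 adjusted p = 0.0310). Cnn2, a calponin of many cell types, was at -0.44 (edgeR adjusted p = 0.201) and Flnc, the muscle filamin, at -0.79 (edgeR adjusted p = 0.238).

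The 13 genes of calcium handling and cGMP had the most negative median of the lists of related genes, at -0.41, with 5 lower and none higher at an unadjusted p under 0.05. Mrvi1, also named Irag1, is the kinase substrate through which cGMP holds back calcium release, and it was at 60.3, 70.0 and 76.9 CPM in Control and at 40.1, 38.1 and 44.2 CPM in M1. The groups were well apart, with a log2 fold change of -0.76 ± 0.13 (SE, edgeR adjusted p = 0.195), and DESeq2 called it lower (adjusted p = 0.00340). The calcium release channel Itpr1 was at -0.39 (edgeR adjusted p = 0.241), the calcium channel subunit Cacna1c at -0.37 (edgeR adjusted p = 0.244) and the nitric oxide receptor subunit Gucy1a1 at -0.42 (edgeR adjusted p = 0.232). Mrvi1 and Gucy1a1 belong to the relaxing arm, and Itpr1 and Cacna1c to the contracting arm.

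Ligands and receptors of contraction were read last. Of 7 ligand genes, 5 were tested, and only Nos3, the endothelial nitric oxide synthase, was under an unadjusted p of 0.05, at a log2 fold change of 0.68 (edgeR adjusted p = 0.235) with groups that touched at 26.4 CPM. Edn2, the endothelin made by granulosa cells at ovulation, was low and uneven, at 0.957, 1.53 and 0.217 CPM in Control and 2.86, 0.630 and 0.395 CPM in M1. Edn1 was at -0.58 (edgeR adjusted p = 0.593) and Edn3 at -0.48 (edgeR adjusted p = 0.452). Of 13 receptor genes, 11 were tested, and 2 were lower at an unadjusted p under 0.05, both of them endothelin receptors. Ednra, the receptor of contractile cells, was at 74.8, 68.9 and 74.5 CPM in Control and at 51.4, 48.5 and 48.8 CPM in M1. These were tight groups well apart, with a log2 fold change of -0.55 ± 0.10 (SE, edgeR adjusted p = 0.195). DESeq2 gave it an adjusted p of 0.0137, below the threshold, but its fold change did not reach 1.5. Ednrb was at -0.36 (edgeR adjusted p = 0.266), Chrm3, a muscarinic receptor, at -0.44 (edgeR adjusted p = 0.548) and Adra1d, an adrenergic receptor, at 0.38 (edgeR adjusted p = 0.675). Over these lists of related genes, 60 of 64 genes were tested and 44 had a negative estimate, as had 50.5% of all genes. At an unadjusted p under 0.05, 16 were lower and 2 higher, where the shares of all genes were 9.17% and 7.7%. EdgeR called none. DESeq2 called 4 lower and 1 higher, where it called 1.5% and 1.3% of all genes with an adjusted p-value.

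**Figure D3:**
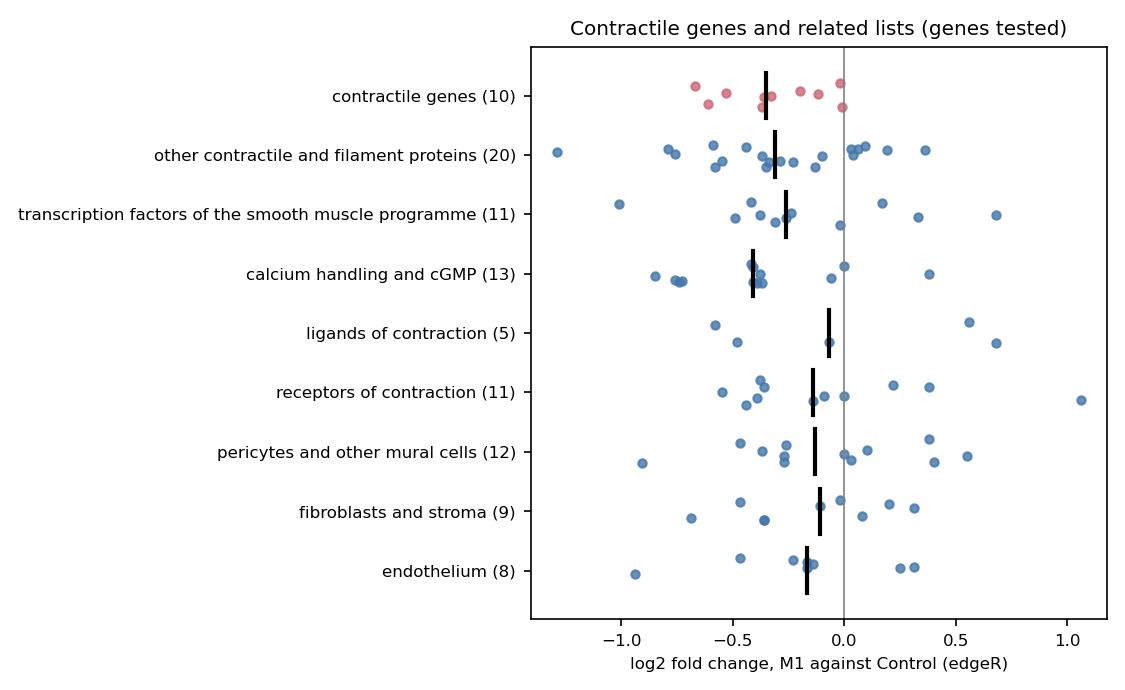
Log2 fold change (edgeR, M1 against Control) of every tested gene in the contractile list, in the lists of related genes and in 3 lists of markers of neighbouring cells, with 1 point per gene and a bar at the median of each list. The medians run from -0.41 for calcium handling and cGMP to -0.07 for the ligands, with -0.35 for the contractile genes.

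Across the 6 libraries the contractile genes followed a shared pattern that was not only that of the groups. Each gene was set against its own mean on the log2 CPM scale, and the median of the 10 genes was then taken in each library. It was 0.18, 0.38 and -0.02 in Control mice 1, 2 and 3 and -0.24, -0.22 and 0.14 in M1 mice 1, 2 and 3. Control mouse 2 was the highest library for 6 of the 10 genes, and M1 mice 1 and 2 were the lowest for 5 and 3 of them. M1 mouse 3 and Control mouse 3 were between, with M1 mouse 3 the higher of them. In pairs of genes, Pearson's r over the 6 libraries had a median of 0.52 over the 45 pairs, with 40 above 0. After the mean of each group was removed, the median was 0.42 and 35 were above 0. The libraries share their scaling and their groups, so these values are descriptions. The closest pairs were Lmod1 with Cald1 (0.95), Actg2 with Tpm2 (0.91), Myh11 with Cnn1 (0.90) and Cnn1 with Des (0.88), while Tpm2 ran against Smtn and Tagln (both -0.33).

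**Figure D4:**
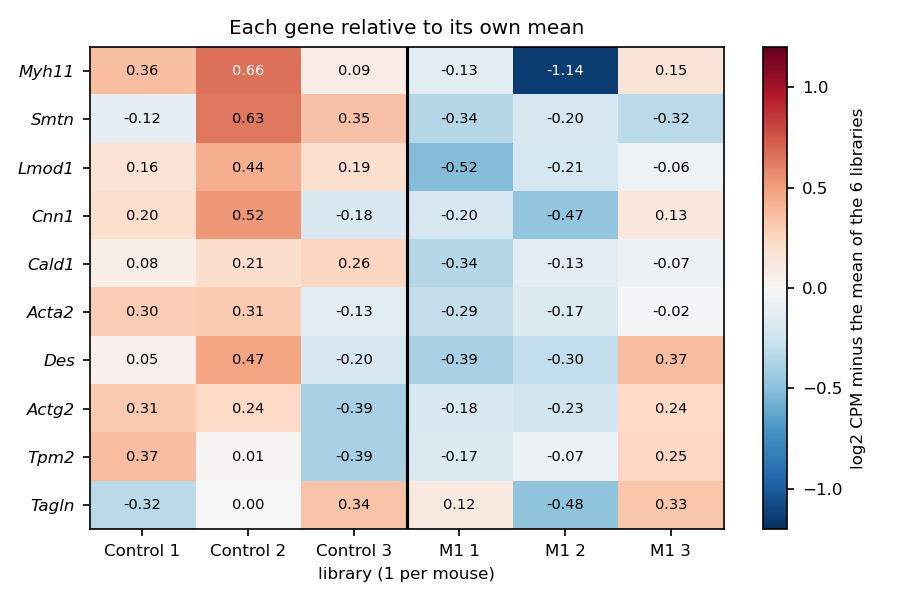
Level of each contractile gene in each library, as log2 CPM minus the gene's mean over the 6 libraries, with genes ordered by their log2 fold change and M1 to the right of the black line. Control mouse 2 is above the mean for nearly every gene, M1 mice 1 and 2 are below it for nearly every gene, and the lowest value is Myh11 in M1 mouse 2 at -1.14.

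Outside the list, the 6 genes whose log2 CPM followed the mean of the contractile genes most closely, of 10742 genes with a mean of at least 10 CPM, were Pcnt (r = 0.997), Lrp4 (0.984), Pth1r (0.977), Chp2 (0.970), Adgrl3 (0.970) and Erbb2 (0.961), over 6 libraries. None of them passed the threshold. The estimate was -0.15 for Pcnt, a centrosome protein, and -0.47 for Pth1r, the receptor of parathyroid hormone. They were picked as the highest of many coefficients over 6 values, and no test was made of them.

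Markers of other cells were read beside these results. Mural cells, the pericytes and other cells that wrap vessels, share much with smooth muscle. Of their 12 markers, 6 had a positive and 6 a negative estimate, none was under an unadjusted p of 0.05, and the median log2 fold change was -0.13. Their sum was 494 to 736 CPM in Control and 472 to 566 CPM in M1, which overlapped. That of the contractile genes was 1350 to 1680 CPM in Control and 1060 to 1330 CPM in M1. It did not overlap, by 1330 against 1350 CPM. This contrast depended on the scale. In the deposited TPM the mural sum did not overlap either, at 416 to 538 in Control and 330 to 388 in M1. Pdgfrb, the defining receptor of pericytes, was at -0.47 (edgeR adjusted p = 0.347) and Rgs5 at -0.37 (edgeR adjusted p = 0.390), while Notch3, the Notch receptor of mural cells, was at 0.38 (edgeR adjusted p = 0.543) and Vtn, higher in every M1 library, at 0.55 (edgeR adjusted p = 0.388), these last 2 and Hsd3b1 being named after their values were seen. The 9 markers of fibroblasts and stroma summed to 2850 to 3810 CPM in Control and 2590 to 3130 CPM in M1. They had 3 positive and 6 negative estimates, with 2 lower at an unadjusted p under 0.05. In TPM their sum was 1350 to 1710 in Control and 1150 to 1180 in M1, without overlap. The 8 endothelial markers summed to 349 to 600 CPM and 350 to 467 CPM, and Pecam1 was at -0.17 (edgeR adjusted p = 0.794). Their TPM sums, 286 to 420 in Control and 215 to 355 in M1, overlapped. Whether the amount of vessels, stroma or follicle wall in the sample has a part in the values of the contractile genes was not tested.

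Tissue that can stay attached to a dissected ovary was looked for in the same way. The 14 genes of skeletal and heart muscle summed to 9.13 to 15.2 CPM in Control and 9.16 to 11.5 CPM in M1. Their defining markers Acta1 and Ckm had means of 0.0590 and 0.0668 CPM in Control and 0.214 and 0.170 CPM in M1, and Myh4 and Myl7 had no count. The 9 genes of the oviduct epithelium summed to 18.0 to 27.1 CPM in Control and 21.8 to 25.4 CPM in M1, with Ovgp1, a secreted oviduct protein, at 3.11 and 3.94 CPM and Foxj1, a factor of ciliated cells, at 0.0881 and 0.273 CPM. The 6 genes of fat cells had 1 tested member, Plin1, at 21.6 CPM in Control and 10.8 CPM in M1 in the mean, and the other 5 had means of at most 0.139 CPM in Control and 0.288 CPM in M1, so that a difference in fat cells was not shown. The ovary's own markers were present. The 8 markers of theca and steroid-producing interstitial cells summed to 12500 to 26200 CPM in Control and 17300 to 27000 CPM in M1. They had 5 positive and 3 negative estimates. Cyp17a1 was at a log2 fold change of -0.28 (edgeR adjusted p = 0.911) and Hsd3b1, higher in every M1 library, at 0.51 (edgeR adjusted p = 0.345). The study places HSD3B also in interstitial cells and the corpus luteum, so this sum does not read theca alone. The 8 granulosa markers summed to 2390 to 3460 CPM in Control and 2140 to 3980 CPM in M1. The medians of these lists were 0.05 and 0.04. The part of attached fat or of other tissue in the values of the contractile genes was not tested.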

How the data were processed

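RNA was measured in the ovaries of 3 Control and 3 M1 mice, grouped by their labels, with 12536440 to 18651402 assigned counts per library. The authors, by the submitters' notes, used FastQC, MultiQC, Trimmomatic 0.38, HISAT2 2.1.0 with GRCm38 and featureCounts 2.0.0. The deposited counts are raw. From them and the gene lengths the authors computed TPM, used here for levels and as an alternative, and FPKM, used here only to recover the lengths. Counts were fitted with edgeR 4.0.16 (R 4.3.3, filterByExpr with a minimum count of 10, TMM), and p-values were adjusted by Benjamini-Hochberg over 17499 genes. The fit was tested on simulated data. Alternatives were DESeq2 1.42.0, limma 3.58.1, other scalings and filters, a gene length offset, a replicate block, each library left out and the TPM. The labels call the mice biological replicates, and p-values set the difference between the groups against the spread between mice within them. Members and lists were chosen with earlier results of these data known. Named related genes are up to 4 per list with the smallest p and a mean of at least 1 CPM, with preset defining markers. A list of related genes that had been chosen with them is not reported here.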

Additional observations from a re-analysis of the deposited data

How the results depend on the processing

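None of the 10 contractile genes passed the threshold under any alternative except Smtn, which passed without Control mouse 1 (-0.79, edgeR adjusted p = 0.0358), so that 0 to 1 were called when a library was left out. Their median log2 fold change ran from -0.43 to -0.22 with a library left out and from -0.52 to -0.33 under the other alternatives. The number without overlap was 5 with the deposited TPM, where 23.1% of all genes lay lower in every M1 library, and 3 with other scalings of the counts. Over all genes, 426 were called by DESeq2, 155 when every gene with a count was kept, 0 with the replicate block, 0 with the length offset and the block, and 0 to 782 with a library left out, the 782 without Control mouse 1. EdgeR called 0 genes when Control mouse 3, M1 mouse 1 or M1 mouse 2 was the one left out. Equal replicate numbers were not seen to pair the mice. The deviations of mice with the same number had correlations of 0.0669, 0.1057 and -0.2548, and not every mouse correlated best with its own number. With 3 mice per group, these values cannot show whether mice with the same number shared a batch. The block gave 0 calls among the 10 genes. Estimates near 0 changed sign: Tpm2 was at 0.00 with limma-voom and with the replicate block, 0.19 without Control mouse 1, 0.08 without M1 mouse 1 and 0.03 without M1 mouse 2. Tagln was at 0.00 with 10 counts in every library, 0.19 without Control mouse 3 and 0.21 without M1 mouse 2. Actg2 was at 0.00 without Control mouse 1 and Des at 0.00 without Control mouse 2. With a library left out, the estimates ran from -0.19 to 0.19 for Tpm2, from -0.17 to 0.21 for Tagln, from -0.31 to 0.00 for Actg2 and from -0.47 to 0.00 for Des. Tagln had the fewest counts of the 10, at 27 to 63 per library. Its standard error of 0.34 was near that of Myh11, 0.32, which had 1658 to 6335 counts. What part of it comes from counting was not tested. For the other 9 genes this was not tested either.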

Other observations

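Among the markers of other cells, a few genes chosen after their values were seen had unadjusted edgeR p-values under 0.05. All were lower after M1. They were 1 of 8 genes tested for theca and steroid-producing interstitial cells, 2 of 9 for fibroblasts, 1 of 8 for endothelium and the 1 tested for fat cells. None of the 12 mural, 8 granulosa, 5 muscle and 4 oviduct genes tested was at that level. Over all genes, 9.17% were lower and 7.7% higher there. Ptch1, the hedgehog receptor and target of theca and stroma, was at 204, 184 and 235 CPM in Control and at 129, 98.1 and 144 CPM in M1. The groups did not overlap, and the log2 fold change was -0.75 ± 0.17 (SE, edgeR adjusted p = 0.195, DESeq2 adjusted p = 0.0142). Its list had 5 positive and 3 negative estimates, and Gli1 of the same list was at 0.10 (edgeR adjusted p = 0.875) with groups that overlapped. Pdgfra, the receptor that marks fibroblasts, was at -0.69 (edgeR adjusted p = 0.227), and Col1a2, a chain of fibrillar collagen, at -0.36 (edgeR adjusted p = 0.281). Other fibroblast markers lay near 0 or above it, with Col1a1 at -0.02, Mfap5 at 0.08, Dpt at 0.31 and Dcn, which was higher in every M1 mouse, at 0.20 (edgeR adjusted p = 0.402). Vwf, the clotting factor of endothelium, was at -0.94 (edgeR adjusted p = 0.236) with groups that overlapped. The endothelial list had 6 negative and 2 positive estimates, the positive ones being Emcn at 0.25 and Cldn5 at 0.31. Plin1, a lipid droplet protein from the fat cell list, was at 19.3, 29.8 and 15.6 CPM in Control and at 12.7, 6.57 and 13.0 CPM in M1 (edgeR adjusted p = 0.235). No other gene of that list passed the filter, and which cells Plin1 came from was not tested. None of these genes was called by edgeR.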
